A study of Mus musculus with 24 samples.

Results

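The neurogenic basic helix-loop-helix (bHLH) factors described here are 9 mouse genes, Neurog1, Neurog2, Neurod1, Neurod2, Neurod4, Neurod6, Atoh1, Olig1 and Olig2. They were chosen by name, as the genes with these symbols in the GENCODE M1 annotation of mm9, and not by their measured values. They are 9 of 26225 genes in which tags were counted, 22380 of them protein-coding. A tag is 1 sequence read that aligned uniquely. It was given to a gene when its midpoint lay in the merged exons of that gene. Levels are RPKM, the tags per kb of exon and per 1000000 unique tags of a library or pool. The RiboMinus and Ribo-Zero libraries were made to compare ribosomal RNA depletion and fragmentation methods for sequencing total RNA, and the tissues are compared here for the bHLH factors.

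One RNA source was CCE, a feeder-independent mouse embryonic stem cell line of strain 129/SvEv that had been differentiated for 5 days without LIF and with 0.266 uM retinoic acid. The other was the whole fetal head (FH) of FVB/N mice at 14.5 dpc, a mixture of brain, muscle, skeleton, skin, blood and sense organs. Ribosomal RNA was removed with the RiboMinus kit in 1 round for CCE and in 1 or 2 rounds for FH, and fragments were made by RNA-hydrolysis or cDNA-shearing. This gave 4 CCE preparations and 3 FH preparations, each sequenced at Vienna-IMP and at Nijmegen. Ribo-Zero libraries were made from other RNA, a biological replicate, with 1 library per tissue sequenced at Vienna-CeMM. CCE preparations are technical replicates, and sheared and hydrolysed preparations of one number share their depleted RNA. No separate animals are stated for FH. The p values therefore measure a spread that is largely technical, and tissue, strain and culture cannot be told apart.

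Proneural bHLH proteins bind DNA as dimers with broadly expressed E proteins, at the short motif known as the E-box. Neurog1, Neurog2 and Atoh1 act early, in progenitors that are leaving the cell cycle, and the Neurod genes act later, in young neurons. Olig1 and Olig2 belong to a related branch that acts in motor neuron and oligodendrocyte progenitors. Id proteins lack the DNA-binding part and take E proteins out of such dimers, while Hes and Hey proteins are repressors that act downstream of Notch.

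The coding sequences of all 9 genes share 1 stretch that encodes the basic part and the start of the first helix. This is the part by which the family is known, and it is shown to let the members be compared letter by letter. It was chosen as the ungapped stretch of 60 bases with the best similarity over the 9 proteins. Each line below gives the mm9 bases in coding direction, 5′ to 3′, and capitals mark the 23 of 60 positions that are identical in all 9 genes.
Neurog1 (chr13:56352943-56353002, minus strand): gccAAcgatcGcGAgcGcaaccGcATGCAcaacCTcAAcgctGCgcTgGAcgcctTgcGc
Neurog2 (chr3:127336995-127337054, plus strand): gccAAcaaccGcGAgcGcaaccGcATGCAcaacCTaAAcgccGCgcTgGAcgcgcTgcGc
Neurod1 (chr2:79294820-79294879, minus strand): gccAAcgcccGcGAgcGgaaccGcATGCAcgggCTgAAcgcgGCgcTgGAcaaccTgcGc
Neurod2 (chr11:98189213-98189272, minus strand): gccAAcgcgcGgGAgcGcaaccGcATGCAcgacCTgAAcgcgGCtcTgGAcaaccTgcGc
Neurod4 (chr10:129708127-129708186, minus strand): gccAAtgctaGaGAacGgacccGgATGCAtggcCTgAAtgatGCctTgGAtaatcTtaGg
Neurod6 (chr6:55629291-55629350, minus strand): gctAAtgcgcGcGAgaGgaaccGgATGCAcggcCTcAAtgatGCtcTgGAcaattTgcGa
Atoh1 (chr6:64679797-64679856, plus strand): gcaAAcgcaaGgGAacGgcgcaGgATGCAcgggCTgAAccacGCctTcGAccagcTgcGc
Olig1 (chr16:91270416-91270475, plus strand): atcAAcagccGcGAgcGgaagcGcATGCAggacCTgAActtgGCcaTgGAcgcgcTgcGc
Olig2 (chr16:91226981-91227040, plus strand): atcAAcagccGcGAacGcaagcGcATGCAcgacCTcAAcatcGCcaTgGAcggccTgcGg

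At the level of amino acids, 12 of 20 residues of this stretch were the same in all 9 proteins. The closest pairs by bases were Neurog1 with Neurog2 and Neurod1 with Neurod2, each with 6 base differences and 1 residue difference. Neurod6 also differed at 1 residue from Neurod1 and from Neurod4, with 14 and 16 base differences. Olig1 and Olig2 differed at 9 bases and 3 residues. The most distant pairs differed at 26 bases, as Neurod4 did from Olig1, from Olig2 and from Neurog2. Pairs with the Olig genes held up to 8 residue differences.

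Despite this shared stretch, most stretches of the members' exons were unique in the genome by exact match. Of all stretches of 32 bases in the members' exons, 98.6% to 100.0% per gene occurred once in the genome, with the lowest share in Neurod2 and the next in Neurod6 at 98.8%. The alignment allowed 2 mismatches in reads of 36 nt and 3 in reads of 51 nt, and uniqueness with mismatches was not tested. The exact count therefore does not show that tags in the shared stretch of close pairs can be told apart. Every member has a single coding exon. Neurog1, Atoh1 and Olig1 have 1 exon in all, and the others have 2. Olig1 and Olig2 are neighbours on chromosome 16, on the same strand and 41092 bp apart, and no other pair lies close together. On mm9 the genes lie at chr13:56351866-56353524 (Neurog1, minus strand), chr3:127336054-127338549 (Neurog2, plus), chr2:79292678-79296908 (Neurod1, minus), chr11:98186729-98190962 (Neurod2, minus), chr10:129705209-129717296 (Neurod4, minus), chr6:55627812-55631257 (Neurod6, minus), chr6:64679140-64681227 (Atoh1, plus), chr16:91270014-91272184 (Olig1, plus) and chr16:91225795-91228922 (Olig2, plus). Only Neurod1 overlaps other annotated genes. It shares 201 exon bases with Cerkl on the same strand and 154 with the non-coding gene Gm17325 on the other strand. Tags carry no strand, so tags in the shared bases cannot be assigned to 1 gene. The Cerkl gene spans all of Neurod1, so tags of unspliced Cerkl RNA could lie in any part of Neurod1, its intron included.

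The members differ widely in base composition. The merged exons held 60.8% G and C in Olig1, 58.8% in Neurog1, 58.7% in Neurod2, 58.2% in Olig2 and 56.0% in Neurog2. Atoh1 had 53.2%, Neurod1 43.6%, Neurod6 41.9% and Neurod4 38.0%. The median of all protein-coding genes was 49.1%, and 96.9% of them had a lower GC content than Olig1 against 2.73% for Neurod4. The first 90 coding bases of 4 members show this range, with G and C in capitals.
Neurod4 (chr10:129708370-129708459, minus strand): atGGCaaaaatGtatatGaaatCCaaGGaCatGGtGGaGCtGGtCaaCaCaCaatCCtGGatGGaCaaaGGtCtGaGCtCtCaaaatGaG
Neurod6 (chr6:55629555-55629644, minus strand): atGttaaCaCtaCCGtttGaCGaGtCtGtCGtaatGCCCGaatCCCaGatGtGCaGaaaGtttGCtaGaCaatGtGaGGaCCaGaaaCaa
Neurog1 (chr13:56353204-56353293, minus strand): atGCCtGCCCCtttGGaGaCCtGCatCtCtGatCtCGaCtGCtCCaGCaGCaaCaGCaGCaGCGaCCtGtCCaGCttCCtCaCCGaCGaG
Olig1 (chr16:91270122-91270211, plus strand): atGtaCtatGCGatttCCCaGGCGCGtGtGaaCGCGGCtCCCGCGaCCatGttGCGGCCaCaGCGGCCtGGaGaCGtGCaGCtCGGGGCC

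These stretches held 66.7% G and C in Olig1, 44.4% in Neurod6 and 43.3% in Neurod4. In the 250 bases before the annotated start, the E-box letters CANNTG (the same on both strands) occurred 3 times each for Neurod1 and Neurod2, 2 times for Neurod6 and once for Neurog1. They did not occur in that window for the other 5 genes. Of all 22380 protein-coding genes, 63.5% had at least 1 such match in a window of this length.

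The depth of a RiboMinus library was 920424 to 2473448 unique tags, which came to 13049762 over the CCE libraries and to 9924914 over the FH libraries. For Ribo-Zero it was 28708715 tags in CCE and 48426051 in FH. In CCE, the pluripotency markers Pou5f1, Nanog and Zfp42 were higher than in FH, as were 7 of 9 markers of extraembryonic endoderm (24.9% of all genes tested were called in that direction), and Dppa3 was at 0 in every RiboMinus preparation of both tissues. In FH, all 10 neuron markers and 4 of 5 neural progenitor markers tested were higher than in CCE, with Vim lower, where 23.2% of all genes tested were called higher in FH. The progenitor count is not firm, as it was 2 to 4 over the alternatives, and in the Ribo-Zero libraries Sox2 was higher in CCE (42.7 RPKM against 21.4 in FH) and Vim was at 198 in both. Markers of other cells of the head were higher in FH as well, namely all 4 of skeletal muscle, 3 of 3 each of cartilage, epidermis and blood, 2 of 3 of lens and 3 of 4 of pituitary and endocrine cells. Several of these markers, for example Slc17a6, Rbfox3 and Pou5f1, had 0 or 1 RiboMinus tag in 1 tissue. They passed the minimum of 10 tags for the test through the other tissue, so their calls are no support for a difference. The summed level of the neuron markers was 351 to 617 RPKM in FH and 28.6 to 34.6 in CCE, and that of the blood markers was 813 to 1327 RPKM in FH and 0 to 1.52 in CCE. The part of each cell type in the levels below was not tested, and in such bulk samples fewer cells of a type and less RNA per cell cannot be told apart.

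All 9 factors were higher in fetal head than in differentiated CCE cells, from Neurog2 at a mean of 62.4 RPKM in FH and 0.178 in CCE down to Neurod4 at 0.625 and 0.0187. The 9 genes together had 138 to 201 RPKM in the FH preparations and 0.588 to 1.76 in the CCE preparations. In the limma fit of log2(RPKM + 1) over all genes with at least 10 tags, 9 of 9 members passed an adjusted p of 0.05 (Benjamini-Hochberg over 16835 genes), all in the direction of FH. Of all genes tested, 23.2% passed in that direction. Since 8 members had under 10 tags in CCE and passed the filter through FH, the fit was also made with a minimum of 1 tag. There 9 of 9 members were called higher in FH, as were 19.6% of 20476 genes. Neurod6 and Olig2, with no CCE tag, still entered that fit through FH. Every FH preparation was above every CCE preparation for 9 of 9 members, against 24.2% of the 16835 genes with at least 10 tags. That set is again the one that 8 members entered through FH. The median log2 difference, FH minus CCE, was 3.05 over the members and -0.10 over all genes tested. The exact two-sided permutation test of 4 against 3 preparations gave p = 0.0571 for each member, which is the smallest value that this number of preparations allows. When totals were set by tags in protein-coding exons, all 9 members passed again, but 65.3% of all calls were then higher in FH against 48.3% with all unique tags, and the median of all genes moved from -0.10 to 0.15.

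**Figure D1:**
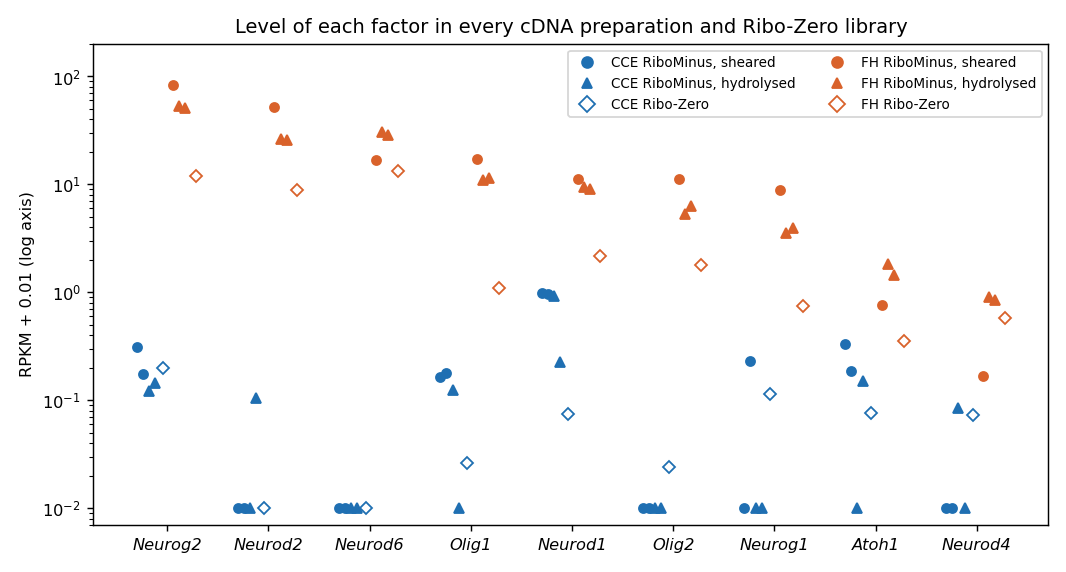
Level of the 9 factors as RPKM plus 0.01 on a log axis, 1 point for each of 4 CCE and 3 FH RiboMinus preparations and for each Ribo-Zero library, with points on the lowest line standing for 0 tags. All FH points of a gene lie above its CCE points, and they come closest for Atoh1, with 0.346 RPKM in FH Ribo-Zero and 0.321 in the highest CCE preparation.

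The neurogenins start the neuronal programme in progenitors. Their values and those of the other members are given first for the RiboMinus preparations. Neurog2, a neurogenin that acts in the dorsal forebrain among other places, had the highest level of the 9. It had 82.5 RPKM in the sheared FH preparation and 53.6 and 51.1 in the hydrolysed ones. In CCE it had 0.301 and 0.166 RPKM in the sheared and 0.113 and 0.133 in the hydrolysed preparations, which is 1 or 2 tags each. The groups were far apart, since the lowest FH preparation was 170-fold above the highest CCE preparation. The log2 difference was 5.72 (SE 0.21, adjusted p = 6.0e-07 with limma). Neurog1, which acts in cranial sensory ganglia as well as in brain, had 8.94 RPKM in the sheared FH preparation and 3.57 and 3.90 in the hydrolysed ones. A single tag was found in CCE, in a sheared preparation, and the other 3 preparations had none. The log2 difference was 2.53 (SE 0.27, adjusted p = 8.4e-05), and pooled FH tags were 103-fold above pooled CCE tags, with a counting interval of 17.9 to 4102 at 95%. With the CCE count set to a floor of 3 tags the fold was 34.2.

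The Neurod genes act after the neurogenins. Neurod2, a factor of maturing excitatory neurons, had 52.4 RPKM in the sheared and 26.6 and 25.7 in the hydrolysed FH preparations. In CCE it had 1 tag in all. The log2 difference was 5.05 (SE 0.26, adjusted p = 2.1e-06). Neurod6, which marks young cortical neurons, showed the reverse order among FH preparations, with 16.7 RPKM in the sheared one and 30.6 and 28.5 in the hydrolysed ones. It had no tag in any CCE RiboMinus library, and its pooled FH level was 253-fold higher with the pooled CCE count set to the floor of 3 tags, with a lower 95% counting limit of 205. The log2 difference was 4.67 (SE 0.23, adjusted p = 1.7e-06).

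Neurod1, which is needed in granule neurons, in sensory ganglia and in endocrine cells, was the member with most tags in CCE. Its 4 CCE preparations had 0.982, 0.948, 0.918 and 0.218 RPKM, 27 tags in all, and its FH preparations had 11.3, 9.47 and 9.07. The groups did not overlap, but the gap was smaller than for Neurog2, with pooled FH tags 12.7-fold above CCE (counting interval 8.54 to 19.7) and a log2 difference of 2.65 (SE 0.22, adjusted p = 2.2e-05). Of the 27 CCE tags 25 lay in the coding part. None lay in the bases shared with Cerkl and 3 lay in those shared with Gm17325, while 25 and 18 of the 261 FH tags did. Neurod4, a factor of early retinal and brain neurons, was the lowest member. It had 0.886 and 0.830 RPKM in the hydrolysed FH preparations, 0.158 in the sheared one from a single tag, and 1 tag in CCE. Its log2 difference was 0.64 (SE 0.17, adjusted p = 0.012), the smallest of the 9 on the log2(RPKM + 1) scale, which understates the change of low genes. Its pooled FH tags were 31.6-fold above CCE, with a counting interval of 5.15 to 1298 and a fold of 10.5 at the floor, and with voom on tag counts its log2 difference of 3.38 was above the 2.94 of Atoh1.

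Atoh1, the proneural factor of the cerebellar rhombic lip and of hair cells, had 1.81 and 1.44 RPKM in the hydrolysed FH preparations and 0.761 in the sheared one. In CCE it had 4 tags in all, which gave 0 to 0.321 RPKM. The log2 difference was 0.99 (SE 0.18, adjusted p = 0.0017), and the pooled FH level was 9.86-fold above CCE with a counting interval of 3.48 to 38.5.

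Olig2, which specifies motor neuron and oligodendrocyte progenitors, had 11.3 RPKM in the sheared and 5.30 and 6.36 in the hydrolysed FH preparations, and no tag in any CCE RiboMinus library. The pooled FH level was 73.2-fold higher at the floor of 3 tags, with a lower counting limit of 58.9, and the log2 difference was 3.05 (SE 0.23, adjusted p = 1.2e-05). Its neighbour Olig1, which acts mainly in the maturation of oligodendrocytes, had 17.1 RPKM in the sheared and 10.9 and 11.4 in the hydrolysed preparations. It had 3 tags in CCE in all. The log2 difference was 3.65 (SE 0.20, adjusted p = 2.6e-06). Olig1 was above Olig2 in all 3 FH preparations, but in the Ribo-Zero library Olig2 was above Olig1, at 1.77 against 1.09 RPKM.

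By mean level over the 3 FH preparations the order was Neurog2, Neurod2, Neurod6, Olig1, Neurod1, Olig2, Neurog1, Atoh1 and Neurod4. The ranges over preparations overlapped for 7 of 8 neighbouring pairs, and only Neurog1 and Atoh1 did not overlap. Within preparations, 5 of 8 neighbouring pairs were in this order in all 3, namely Neurog2 above Neurod2, Olig1 above Neurod1, Olig2 above Neurog1, Neurog1 above Atoh1 and Atoh1 above Neurod4. Neurod2 was above Neurod6 in 1 of 3 preparations, the sheared one. Neurog2 alone made up 37.0% to 41.0% of the summed level of the 9 genes in the RiboMinus preparations, while the share of Neurod6 was 8.31% in the sheared preparation and 20.6% and 21.5% in the hydrolysed ones. Hydrolysed libraries that carry the same number at the 2 locations did not always match each other. For Neurog2 the FH1 hydrolysed libraries gave 74.7 RPKM at Vienna-IMP and 25.6 at Nijmegen, and the FH2 libraries 45.4 and 57.1. When the hydrolysed numbers were crossed at Nijmegen, 9 of 9 members were still called. In the Vienna-IMP libraries alone 9 of 9 were called, and in the Nijmegen libraries alone 8 of 8 that passed the filter on tags, without Neurod4.

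The Ribo-Zero libraries, with 1 library per tissue and no test, gave the same direction for all members. In the FH Ribo-Zero library the levels were 13.2 RPKM for Neurod6, 12.0 for Neurog2, 8.91 for Neurod2, 2.18 for Neurod1, 1.77 for Olig2, 1.09 for Olig1, 0.734 for Neurog1, 0.574 for Neurod4 and 0.346 for Atoh1. In the CCE library no member was above 0.188 RPKM, which was the level of Neurog2 from 12 tags. For a count over all genes, CCE counts under 3 tags were set to 3. All 9 members were then over 4-fold higher in FH, against 13.8% of all genes with at least 10 tags in the 2 libraries. Over coding exons 8 of 9 were, without Neurog1 at 3.11-fold from 21 tags in FH and 4 in CCE, against 13.0% of the genes with that minimum. Over all exons, every member but Neurog2 had 0 to 6 CCE tags and passed the minimum through FH. These counts are therefore no support for the difference. Neurod2 and Neurod6 had no tag among 28708715 in CCE and were 268-fold and 272-fold higher in FH with the CCE count set to the floor of 3 tags. The lower 95% counting limits of these folds were 217 and 221. Counted once per position the folds at the floor were 136 and 125, and over coding exons 133 and 190. Neurog2 was 63.7-fold higher (counting interval 36.3 to 124) and Neurod1 34.1-fold (14.5 to 106). Counted once per position, the ratio of Neurog2 fell to 31.4. Olig1 and Olig2, with 1 CCE tag each, had ratios of 68.2 (12.0 to 2716) and 124 (22.0 to 4917), or 22.7 and 41.3 with the CCE count set to 3 tags and 7.31 and 18.8 over coding exons at that floor. The ratios of Neurod4, Neurog1 and Atoh1 were lowest, at 9.19 (4.07 to 25.7), 7.00 (2.83 to 22.3) and 5.19 (1.85 to 20.1). These intervals cover counting error only, because there was 1 library per tissue. Tags with 1 start may be copies of 1 molecule, and the intervals are then too narrow.

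The level of all 9 genes in FH was lower in the Ribo-Zero library than in the pooled RiboMinus libraries, but by unequal amounts. RiboMinus was 11.2-fold above Ribo-Zero for Olig1 (counting interval 9.00 to 14.1) and 6.45-fold for Neurog1 (4.54 to 9.21). It was 4.85-fold for Neurog2, 4.42-fold for Neurod1, 4.18-fold for Atoh1, 3.90-fold for Olig2 and 3.49-fold for Neurod2. For Neurod6 it was 2.05-fold (1.86 to 2.26), and for Neurod4 1.26-fold, with an interval of 0.769 to 1.99 that includes 1. The order of the members changed with it, as 5 of 36 pairs were in the opposite order in the Ribo-Zero library. Neurod6 then came first and Olig1 stood below Neurod1 and Olig2.

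The ratio moved with GC content among the members and among all genes. For 11418 protein-coding genes with at least 50 FH RiboMinus tags, the median log2 ratio of Ribo-Zero to RiboMinus was 0.29 under 40% GC, -0.69 at 50 to 55% and -1.65 over 60%. Across the 9 members Pearson's r of this log2 ratio with GC was -0.79 and Spearman's rho -0.72, and across the protein-coding genes r was -0.51, as a description over genes that share the same libraries. Most members nevertheless lay below genes of like composition. Among genes within 1 percentage point of GC, the share with a lower ratio was 0.426% for Neurod1, 0.777% for Olig1, 2.77% for Neurog1, 4.78% for Atoh1, 5.72% for Neurod6 and 6.58% for Neurog2. It was 13.8% for Neurod4, 22.7% for Olig2 and 30.7% for Neurod2. Atoh1 and Neurod4, with 30 and 24 FH RiboMinus tags, are themselves below the minimum of 50 tags of the genes they are set against. Depletion kit, RNA sample, location, read length, depth and fragmentation differ together between these libraries and cannot be told apart. The RiboMinus pool includes the sheared FH preparation, while the Ribo-Zero library was hydrolysed.

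**Figure D2:**
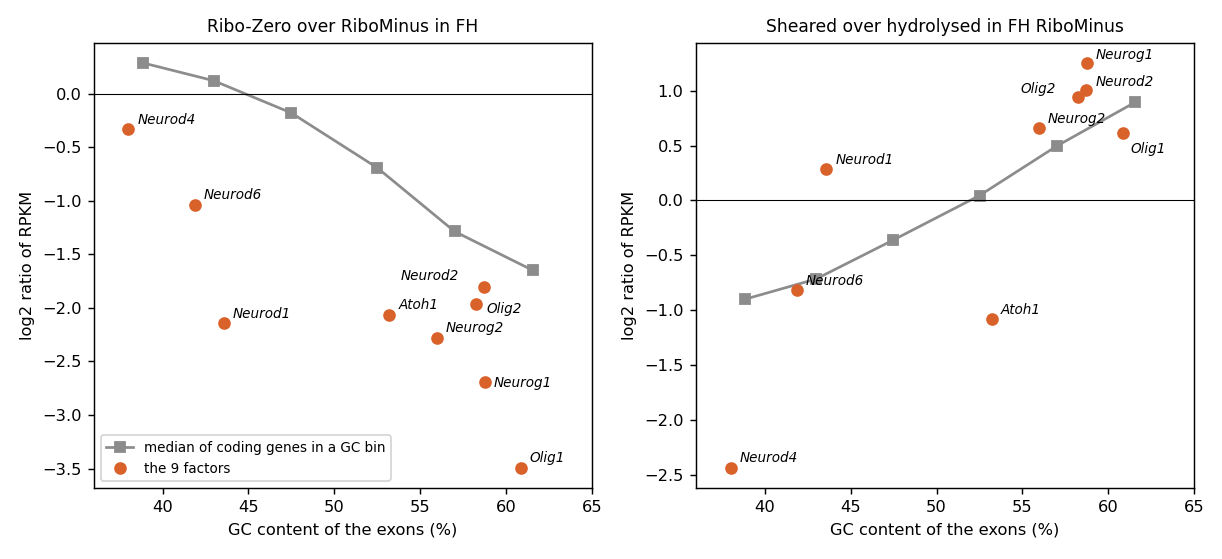
Log2 ratios of RPKM for the 9 factors in FH against the GC content of their exons, with the median of protein-coding genes per GC bin in grey, drawn at the median GC of the bin. On the left (Ribo-Zero over RiboMinus) all 9 points lie below 0, with Olig1 lowest at -3.49. On the right (sheared over hydrolysed) the 5 genes over 55% GC and Neurod1 lie above 0 and Neurod6, Neurod4 and Atoh1 below.

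Fragmentation moved with composition too. In FH, the RPKM of the sheared preparation was 2.38-fold that of the pooled hydrolysed preparations for Neurog1 (counting interval 1.44 to 3.86), 2.01-fold for Neurod2, 1.92-fold for Olig2, 1.58-fold for Neurog2 and 1.53-fold for Olig1. For Neurod6 the ratio was 0.567 (0.434 to 0.732). For Neurod1 it was 1.22 (0.892 to 1.63), for Atoh1 0.473 (0.0918 to 1.54) and for Neurod4 0.185 (0.00449 to 1.14), intervals that include 1. Over all protein-coding genes the median log2 ratio ran from -0.90 under 40% GC to 0.89 over 60%. Libraries of both kinds did not overlap for 6 members, Neurog1, Neurod2, Neurod4, Neurod6, Olig1 and Olig2, and 40.6% of all genes tested did not overlap in the same way. There was a single sheared FH preparation, so this compares 1 preparation with 2. Whether the difference between tissues depends on fragmentation could hardly be tested with a single sheared FH preparation. The tissue by fragmentation term in limma gave adjusted p of 0.277 to 0.951 for the members and called 1 of 16835 genes, while unadjusted p was under 0.05 for 6 of 9 members and for 10.1% of all genes.

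Tags were not spread evenly along the members. In FH RiboMinus libraries the coding part was read more densely than the 3′ untranslated part for all 9 genes. The study reports lower coverage of untranslated parts for short, medium and long genes with both kits, so this is not particular to the members. The share over all genes was not computed here, and Atoh1 and Neurod4 had only 3 and 7 tags in the 3′ part. The contrast was strongest for Neurod1, with 21.5 RPKM over the coding part and 0.488 over the 3′ part from 7 tags, although that part is 1446 bp long. The Ribo-Zero library had 87 tags there, and the ratio of 3′ to coding density was 0.0226 in RiboMinus and 0.362 in Ribo-Zero. The 3′ part of Neurod1 held 31.3% G and C against 56.6% in its coding part. For Neurod6, with 33.6% and 47.8%, the ratio was 0.132 in RiboMinus and 0.437 in Ribo-Zero. For Olig1, with 54.9% and 68.3%, it was 0.926 and 1.23, and for Neurod2, with 52.8% and 66.7%, it was 0.439 and 0.637. The ratio was higher in Ribo-Zero for all 9 members, and the share of all genes with such a shift was not computed. Over coding exons alone the levels were higher, at 112 RPKM for Neurog2 and 22.5 for Neurod1 as means of the FH preparations, and 9 of 9 members were again called higher in FH. Neurod1 then stood above Olig1, which was the only pair of 36 to change its order.

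**Figure D3:**
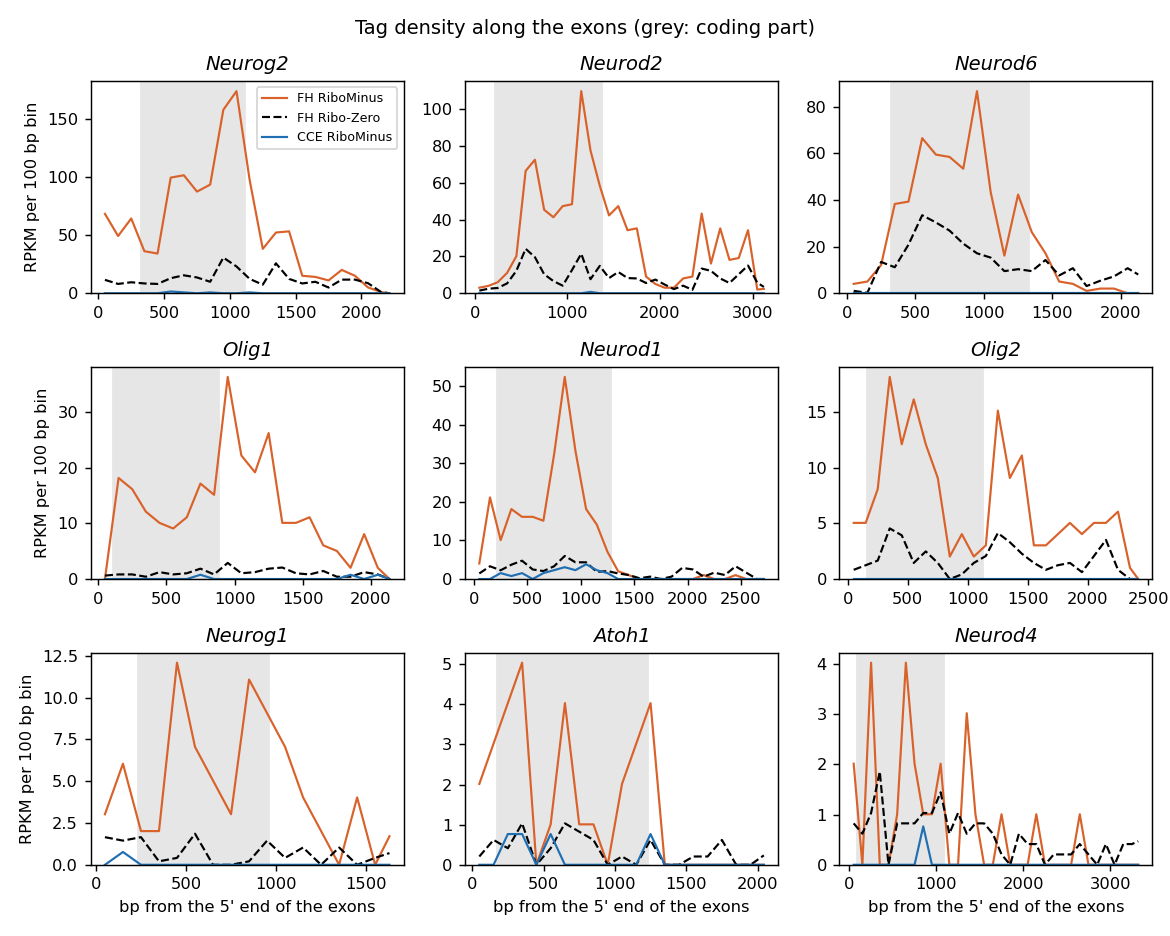
Tag density per 100 bp bin along the merged exons of each factor from the 5′ end, in RPKM, for pooled FH RiboMinus, FH Ribo-Zero and pooled CCE RiboMinus libraries, with the coding part in grey and separate vertical scales. For Neurod1 and Neurod6 the RiboMinus line falls near 0 after the coding part, while for Olig1 and Neurod2 it goes on into the 3′ part.

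An intron is annotated in 6 members, and its tag density was below that of the exons in FH. In RiboMinus libraries the intron had 27.0% of the exon density in Neurod2, 19.0% in Olig2, 18.8% in Neurod1, 12.9% in Neurog2, 6.37% in Neurod4 and 2.02% in Neurod6. In that order these shares rest on 91, 9, 27, 20, 4 and 7 intron tags. In the Ribo-Zero library the shares were 61.2% for Neurod2, 36.6% for Neurod1, 11.5% for Neurog2, 11.1% for Neurod4, 8.44% for Olig2 and 2.91% for Neurod6. These rest on 288, 58, 18, 27, 5 and 24 tags. With so few tags in some introns, the order of the members below Neurod2 is not firm, nor is the change of Olig2 between kits. Neurod6 had the lowest share and Neurod2 the highest with both kits. Tags in the Neurod1 intron may also come from Cerkl, whose gene spans it. Tags in the flanks of the genes, outside other genes, were few, with 0 to 0.222 RPKM in FH RiboMinus libraries.

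The genes that act with the bHLH factors were taken from lists fixed by name, and their levels and tests are from RiboMinus preparations unless Ribo-Zero is named. Genes tested from these lists with under 10 CCE tags passed the filter on tags through FH, so their calls are no support for a difference. Of the 3 E proteins, the dimer partners, only Tcf4 was called, against 23.2% of all genes higher in FH and 24.9% lower, with 22.0 ± 3.87 RPKM in FH and 6.05 ± 1.16 in CCE (SD, n = 3 and n = 4 preparations) and a log2 difference of 1.71 (SE 0.20, adjusted p = 1.7e-04 with limma). Tcf3 had 45.5 RPKM in FH and 62.7 in CCE and Tcf12 had 28.3 and 21.2, neither past the threshold. Tcf12 was called when totals were set by tags in protein-coding exons, which made 2 of 3 higher. Both had a mean over 20 RPKM in CCE, where none of the 9 factors reached a mean of 1 RPKM.

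Among 9 genes for Id, Hes and Hey proteins, 4 were higher in FH, 3 lower and 2 not called, against 23.2% and 24.9% of all genes tested, with a median log2 difference of 0.47. Hes5, a Notch target of neural progenitors, had 42.6 ± 28.1 RPKM in FH and no tag in the CCE RiboMinus libraries, with a log2 difference of 5.26, and 11.7 and 0.0511 RPKM in the Ribo-Zero libraries. Id4 was at 84.3 ± 17.0 in FH and 6.90 ± 1.66 in CCE, a log2 difference of 3.43. Id3 was on the other side, at 41.2 ± 10.8 in FH and 208 ± 84.4 in CCE, with a difference of -2.27, and Id1 and Id2 were lower in FH as well. The split ranged over the alternatives from 3 to 5 higher and from 3 to 4 lower. It was 5 and 3 when totals were set by tags in protein-coding exons, and Hes1 was also lower with the replicate block, with fragmentation as a covariate and without the sheared FH preparation. With a mean RPKM over 3 it was 3 and 3 of 8 genes, and the median turned to -0.15.

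Of 11 other neural bHLH genes, 9 had enough tags, and 7 of these were higher in FH and none lower, against 23.2% and 24.9% of all genes tested, with a median log2 difference of 1.67. Of these 7, Atoh7, Bhlhe23, Nhlh1, Nhlh2 and Tal2 had 0 to 4 CCE tags and passed the minimum of 10 through FH. With a minimum of 1 tag 8 of 11 were higher, and Atoh7, Nhlh2 and Ptf1a, with no CCE tag, still entered through FH. Atoh7, a factor of retinal ganglion cells, had 17.9 ± 3.82 RPKM in FH and no tag in CCE with RiboMinus, and 2.02 and 0.155 RPKM with Ribo-Zero. Bhlhe22, an Olig-related repressor, had 12.2 ± 6.56 in FH and 0.902 ± 0.341 in CCE, a log2 difference of 2.71. Nhlh1, a factor of newborn neurons, had 5.89 ± 1.01 and 0.0603 ± 0.121, a difference of 2.70. Olig3 and Ascl4 were not called, and Neurog3 and Ptf1a were not tested, with 1 and 8 tags in FH.

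Of 16 genes that have been described as targets of proneural factors, 12 were higher in FH, none lower and 4 not called, against 23.2% higher and 24.9% lower of all genes tested, with a median log2 difference of 2.30. Over the alternatives that tested all 16 genes 12 to 14 were higher, and 1 gene, Plk3, was lower with repeated positions counted once and without the second hydrolysed CCE preparation. Insm1, a zinc finger factor of newborn neurons, had 43.5 ± 22.5 RPKM in FH and 0.315 ± 0.210 in CCE, a log2 difference of 4.98. The microtubule protein gene Dcx had 30.7 ± 10.8 and 0.0407 ± 0.0393, a difference of 4.86. Mfng, which modifies Notch receptors, had 19.3 ± 1.91 and 0.284 ± 0.287, a difference of 4.00. The genes not called were Rnd2, Gadd45g, Plk3 and Rcor2. Dcx, Stmn2 and Tubb3 of this list are also neuron markers.

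In the oligodendrocyte lineage list, 5 of 9 genes tested were higher in FH and none lower, against 23.2% and 24.9% of all genes, with a median log2 difference of 0.43. The count depended on the setting, with 3 of 7 higher at Nijmegen and 6 higher and 1 lower, Cnp, with fragmentation as a covariate. Sox10, which is shared with neural crest, had 14.7 ± 2.84 RPKM in FH and 0.263 ± 0.329 in CCE (log2 difference 3.65). Cspg4 and Pdgfra, which mark oligodendrocyte precursors and also perivascular and mesenchymal cells, had differences of 3.33 and 1.39. The myelin genes were low or equal. Mbp had 2.47 ± 0.676 RPKM in FH and 2.35 ± 0.380 in CCE, with a log2 difference of 0.04, and Mog had 2 tags in FH and none in CCE in the RiboMinus libraries, but 2.40 and 1.56 RPKM in the Ribo-Zero ones.

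**Figure D4:**
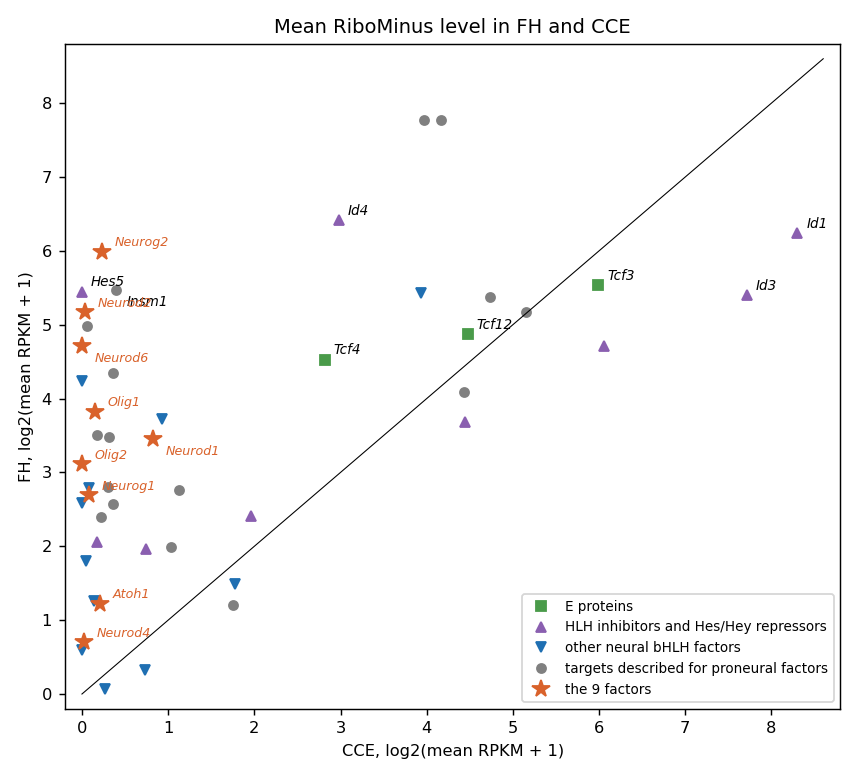
Mean level as log2(RPKM + 1) over 3 FH against 4 CCE RiboMinus preparations for the 9 factors (stars) and for the genes of 4 lists, with the line of equal level. The 9 factors stand at the left edge, below a mean of 1 RPKM in CCE, while Tcf3, Id1 and Id3 lie below the line.

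The 5 other genes whose log2(RPKM + 0.1) was most like the sum of the 9 factors over the 7 preparations and 2 Ribo-Zero libraries were Crybb3, Ccdc3, Mapk8ip2, Adcyap1r1 and Cadm4, with Pearson's r of 0.997 to 0.998. Crybb3 had a mean of 58.1 RPKM in FH and 0.407 in CCE. High r was common, as 941 of 16826 genes had r over 0.95 and 225 had r over 0.98, and the 9 points fall into 2 tissues that stand far apart.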

How the data were processed

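Tags of RNA depleted of ribosomal RNA were read in 14 RiboMinus and 2 Ribo-Zero libraries. The authors aligned them with Bowtie to mm9, kept unique alignments and deposited their positions, 1 line per tag. RiboMinus and Ribo-Zero reads were 36 and 51 nt long. The deposited score is constant within a library, so no use was made of it. RPKM was computed here from tag midpoints in the merged exons of GENCODE M1 genes, 22380 coding for protein and 3845 not, whose chromosome names matched the files, with no tag past the end of a chromosome. The 8 samples of extra or combined lanes were not analysed here. Tags of both locations were summed by cDNA preparation, which was the unit of the limma and permutation tests.

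Genes with at least 10 tags were tested with limma (3.58.1, R 4.3.3) on values of log2(RPKM + 1) with trended variance and Benjamini-Hochberg adjustment, beside exact permutation tests for single genes. On simulated data of 4 CCE and 3 FH preparations with 200 genes of at least 50 tags changed 4-fold, 179 were called, and 14 unchanged genes were called among 16810 tested. The simulated preparations were independent with 1 common dispersion, while real ones share depleted RNA and differ in fragmentation. Atoh1 and Neurod4 have fewer than 50 tags. These rates therefore do not carry over to the real fit or to those 2 members. For folds of single genes, counts of 0 were set to a floor of 3 tags, and for the share of genes over 4-fold in Ribo-Zero libraries all CCE counts under 3 were, and intervals are exact Poisson or binomial at 95%. At 920424 to 2473448 unique tags per RiboMinus library, single libraries resolve only abundant genes.

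All 9 members are named, and from each list the 3 largest changes past the threshold. Other genes of the lists were named after their values were seen. Map2 was matched through its RefSeq synonym Mtap2, and Sox1 was not analysed here. Of the other neural bHLH genes, 1 is not reported here and was left out of its list. The members and lists were chosen with earlier results of these data known. Preparation numbers follow the study's sample list, where hydrolysed numbers may be crossed at 1 location. Deviations of same-numbered CCE and FH preparations from their tissue means correlated with r = 0.513 (sheared 1), 0.685 (hydrolysed 1) and 0.691 (hydrolysed 2) over 10278 genes. Both preparations of a pair were also fragmented in the same way, and pairs of different numbers were not compared. These correlations therefore cannot decide whether the numbers pair the preparations. Fragmentation was taken from the labels, although the protocol text describes hydrolysis for sheared samples too. Alternatives were other filters, pseudocounts, scalings and models, coding exons, repeated positions counted once, single locations and each preparation left out. Counting, intervals and plots were made in Python 3.11.15 with scipy 1.17.1, numpy 2.4.6, matplotlib 3.10.9 and pandas 2.3.3.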

Additional observations from a re-analysis of the deposited data

Results flagged for a closer look

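For 5 of 16 tested groups of values of a member, in 4 CCE preparations or 6 FH RiboMinus libraries, 1 value stood apart from the others by Dixon's criterion. In 3 of them, Neurod2 with 0.0945 RPKM, Neurod4 with 0.0749 and Neurog1 with 0.223 in 1 CCE preparation, the other 3 preparations were at 0 and the value rests on a single tag, so that the criterion is met whatever the value. For Neurod1 the CCE preparation at 0.218 RPKM, from 2 tags, was below the other 3, of which the lowest had 0.918. For Neurog1 the sheared FH library from Nijmegen had 12.4 RPKM, while the next had 5.60. In continuous values, chance flags about 1 of 20 groups.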

How the results depend on the processing

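All members tested stayed higher in FH and past the threshold under 19 alternatives, with 9 of 9 called except 8 of 8 at Nijmegen and 7 with a mean RPKM over 3. Those 7 passed that filter through FH alone, so their call there is no support. In the settings with a minimum of 10 tags, the members tested other than Neurod1 had under 10 CCE tags and passed it through FH. Their calls there are no support either. With a minimum of 1 tag, Neurod6 and Olig2 entered through FH. The largest adjusted p, 0.048 with limma, was that of Neurod4 without FH preparation 2. Its log2 difference ranged from 0.52 to 3.38 over these alternatives, the upper end with voom on tag counts. The replicate block by preparation number left out the sheared CCE preparation 2, which has no FH partner. It changed no member's call, with 9 of 9 called, while 10283 genes were called in all against 8087 without the block in the same preparations. All called genes ranged from 5452 at Nijmegen to 10777 with fragmentation as a covariate, and from 6581 to 8087 when 1 preparation was left out. Differences moved by over 1.5 times for 7 of 9 members, all but Neurog2 and Neurod1, with a pseudocount of 0.1 (log2 differences of 2.43 to 8.13 over the 9) and with voom (2.94 to 8.97), and for Neurod4 alone with totals from protein-coding exons (1.02) and over coding exons (1.08). Neurog1, for example, went from 2.53 to 5.25 and 5.27. Medians of the gene lists moved too with these 2 settings. That of the oligodendrocyte lineage went from 0.43 to 1.27 and 1.40. The median of the other neural bHLH genes went from 1.67 to 3.58 and 3.65, and that of the described targets from 2.30 to 3.76 and 3.81. For the Id, Hes and Hey genes it went from 0.47 to 0.60 with both. The share of calls that were higher in FH was 48.3%, and 65.3% with totals from protein-coding exons or 37.4% with a mean RPKM over 3. The order of member levels changed in 1 of 36 pairs over coding exons and in 5 of 36 in the Ribo-Zero library, and in 0 pairs with repeated positions counted once or at either location. Over coding exons the Ribo-Zero ratios of Olig1 and Olig2 were 7.31 and 18.8 with the CCE count of 0 set to 3 tags, against 22.7 and 41.3 over all exons at the same floor. Those of Neurod2 and Neurod6 were 133 and 190, and that of Neurog1 was 3.11 against 7.00, so that 8 of 9 members were over 4-fold. Counted once, Neurog2 moved to 31.4, Neurod2 to 136 and Neurod6 to 125. With 0 to 27 tags per member in all CCE RiboMinus libraries, folds of single members have wide counting intervals.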
